A study of Danio rerio with 6 samples.

Results

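The haemangioblast is the early mesodermal population from which endothelium and primitive blood both arise. Grouped here under its name were 7 transcriptional regulators of endothelial and blood development: npas4l, tal1, lmo2, hhex, cbfa2t3, runx1 and myb. They were chosen by symbol, among 19722 genes listed for cells sorted from zebrafish embryos. Of the 7, 6 were found under their own symbol. npas4l carries no symbol in the table and was found by its identifier, ENSDARG00000116511, through a list of gene names.

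GFP-positive cells were collected by FACS at the 15-somite stage from embryos of 2 lines, with 3 libraries of each. One line, Gt(endocard:egfp), combines the gene trap Gt(SAGFF27C), which expresses a Gal4 activator, with the reporter Tg(4xUAS:egfp). At this stage it labels mainly the endocardium, the inner lining of the heart, and a high GFP gate was used because cardiomyocytes express the reporter weakly. From time-lapse movies, the paper reports that this line likely marks a few myeloid cells too, judged by their shape and movement. The other line, Tg(fli1a:egfp), labels endothelium, endocardium included, and blood cells. Fish homozygous for Gt(endocard:egfp) or heterozygous for Tg(fli1a:egfp) were outcrossed to wild-type fish. The labels name no mutation under study and no treatment. The gene trap is itself an insertion, placed by the paper in an intron of map3k22. Embryos were held overnight at a lower temperature to slow their development. Libraries were amplified from 2 ng of RNA by Smart-seq2, a full-length cDNA method that records neither the strand of a read nor the molecule it came from.

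Log2 CPM is the log2 of the reads of a gene in every 1000000 counted reads. The measurement described is the authors' mean of each gene, read here as log2 CPM over the libraries of both lines. It is a pooled value without an SD or a depth per library, and it describes neither line on its own: a member that differed between the lines would have a mean lying between them. In its own comparison of the lines, the paper reports tal1, under the name scl, as significantly enriched in the Tg(fli1a:egfp) cells. The pooled mean of tal1 therefore stands for neither line. The size and direction of any difference between the lines were not analysed here. CPM counts reads and was not divided by transcript length, so the order of the values below is an order of read share and not of transcript number. A sorted population is also a mixture, in which more cells of a type and more RNA per cell cannot be told apart.

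The 7 genes act at successive steps of blood and vessel formation. Npas4l, the product of the cloche locus, is a bHLH-PAS factor that stands at the top of the programme and activates etv2 and tal1. Tal1 is a bHLH factor that pairs with E proteins, and Lmo2 is a LIM-only adaptor that joins Tal1 to Ldb1 and Gata factors. Hhex is a homeodomain factor of early endothelial and blood precursors, and Cbfa2t3 is a co-repressor of the ETO family that associates with Tal1 complexes in mammalian blood cells. Runx1 and Myb are required for definitive blood, Runx1 for the emergence of stem cells from haemogenic endothelium and Myb for their maintenance and spread. The paper's introduction also lists runx1 and myb, with spi1b, for myeloid progenitors already before the stage sorted here.

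The members spanned a wide range of read share. The CPM values implied by their mean log2 values summed to 2604, of which tal1, lmo2 and myb held 92.0%. This sum is not a share of reads measured in any library. The highest and the lowest member lay 7.19 log2 units apart in mean log2 CPM. All 7 had a mean above the median of all listed genes, which was 2.58 log2 CPM. For npas4l this did not hold among genes with a symbol or among genes of at least 1 CPM, where it lay at percentiles 43.5 and 35.8. The top 10% of all genes, which began at 6.52 log2 CPM, held 4 of them (tal1, lmo2, myb and hhex), and the top 25%, from 4.93 log2 CPM, held cbfa2t3 in addition, with runx1 just outside at 4.91. Their median was 6.72 log2 CPM, the value of hhex.

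**Figure D1:**
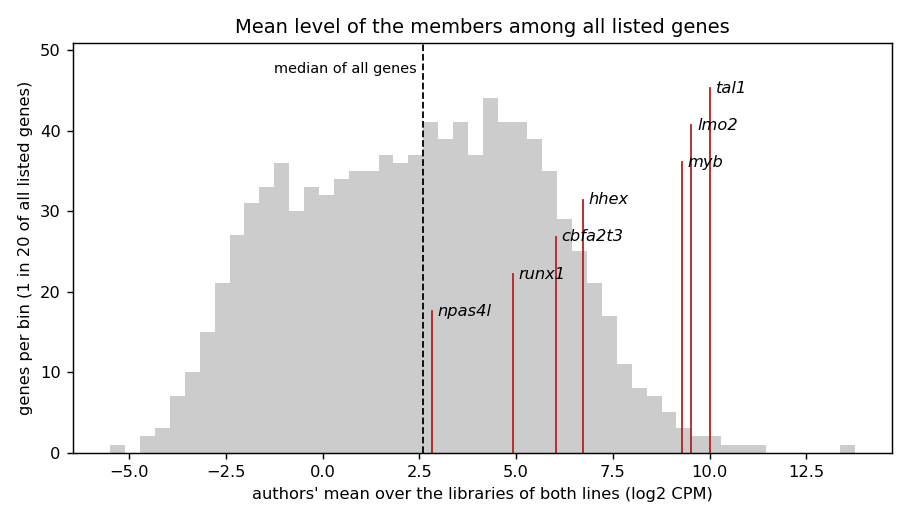
Mean level of the 7 members as red lines on the distribution of all listed genes (grey; every 20th gene in order of level), with the authors' mean over both lines in log2 CPM on the x axis and genes per bin on the y axis; the height of a red line only separates the names. tal1, lmo2 and myb sit together in the upper tail, between 9.29 and 10.01 log2 CPM, whereas npas4l sits next to the median of all genes.

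npas4l, the most upstream of the 7, had the lowest read share at the stage sorted here. The paper's discussion cites a reported npas4l peak at tailbud stages, with a high level kept until the sorted stage. Levels at other stages were not measured in these libraries. The mean of npas4l was 2.82 log2 CPM, or 7.07 CPM. That placed it at percentile 52.5 of all listed genes by read share, close to the median. Of the listed genes, 9361 had a higher mean in log2 CPM. Class I bHLH-PAS proteins such as Npas4 bind DNA with an Arnt-type partner. Of 5 further bHLH-PAS genes on the list, 4 were found. The Arnt-type partners arnt and arnt2 had means of 3.16 and 2.86 log2 CPM, and the Bmal-type genes bmal1a and bmal1b, listed under their older arntl names, had 4.35 and 3.40. All 4 lay above npas4l in read share, by 0.03 to 1.53 log2 units. npas4a, a relative of npas4l known for its activity-dependent induction in neurons, was not among the genes found.

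tal1 had the highest read share of the 7. Its mean over both lines was 10.01 log2 CPM, or 1034 CPM, and 98 of the listed genes had a higher one. lmo2 followed with 9.53 log2 CPM, or 738 CPM, and 152 genes had a higher mean than it. Both lay above percentile 99 of all genes by read share. The spread between libraries was not used here, so whether tal1 and lmo2 differ beyond their error was not tested.

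Genes of the other proteins of the Tal1-Lmo2 complex, and of relatives of Tal1 and Lmo2, had a wide range of read shares. Apart from the members, 15 of 18 genes on this list were found, and 14 of the 15 had a mean of at least 1 CPM, as did 73.9% of all listed genes. Their median was 5.17 log2 CPM. Of the Ldb1 genes, which encode the dimerising scaffold, ldb1a had 7.59 log2 CPM and ldb1b 2.92. The E proteins with which Tal1 pairs gave 7.42 log2 CPM for tcf3b, 4.03 for tcf3a and 4.55 for tcf12. gata1a, the erythroid Gata factor, had 6.75 log2 CPM, and gata2a, which is used in blood and endothelial precursors, had 5.91. The Ssbp proteins protect Ldb1 from breakdown in mammalian cells, and their genes ranged from 0.55 log2 CPM for ssbp2 to 7.46 for ssbp3b, with 3.80 for ssbp3a and 6.33 for ssbp4. The relatives found had lower read shares than tal1 and lmo2: tal2 had -0.37 log2 CPM, lmo1 3.64, lmo4a 5.35 and lmo4b 5.17. lyl1, tcf4 and gata2b were not found by name.

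**Figure D2:**
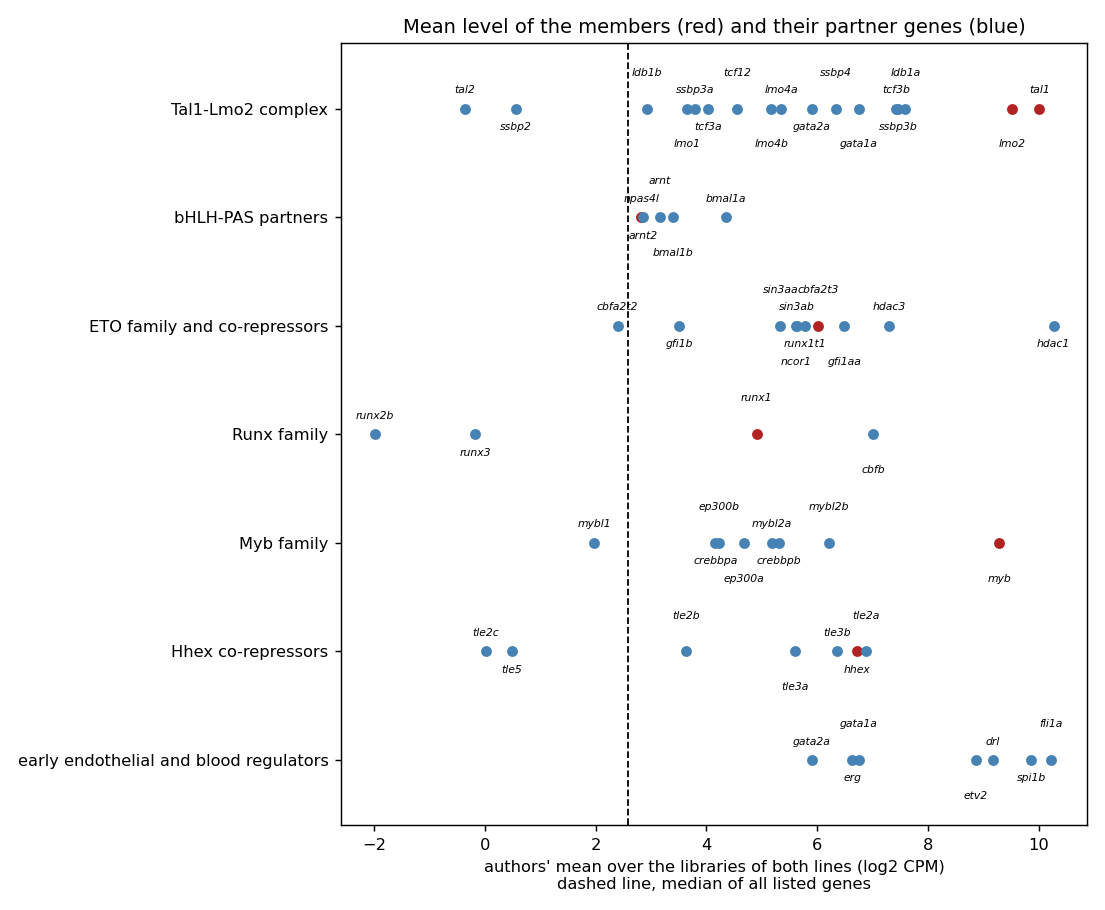
Mean level of the members (red) and of the genes on 7 partner lists (blue), 1 list per row, with the authors' mean over both lines in log2 CPM on the x axis and the median of all listed genes as a dashed line. tal1, lmo2 and myb lie to the right of all other genes found in their rows, npas4l lies at 2.82 log2 CPM, below the Arnt-type and Bmal-type genes of its row, and hhex and cbfa2t3 lie within the range of theirs.

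hhex had a mean of 6.72 log2 CPM, or 105 CPM, at percentile 91.3 of all listed genes by read share. Hhex represses transcription in part through Groucho/Tle co-repressors, and all 6 genes listed from the Groucho/Tle family were found. tle2a had 6.89 log2 CPM, tle3b 6.36, tle3a 5.61 and tle2b 3.63. tle2c and tle5, the latter listed under its older name aes, stood near the minimum of 1 CPM, with 0.02 and 0.49 log2 CPM.

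cbfa2t3 had a mean of 6.02 log2 CPM, or 65.1 CPM, at percentile 86.2 of all listed genes by read share. The other genes of the ETO family were also found, runx1t1 with 5.79 log2 CPM and cbfa2t2 with 2.39. Of the co-repressors with which ETO proteins associate in mammalian cells, hdac1 had 10.27 log2 CPM, hdac3 7.30, sin3ab 5.63, ncor1 5.63 and sin3aa 5.33. Of the Gfi1 repressors, which act in primitive blood, gfi1aa had 6.49 log2 CPM. The row listed as gfi1b had 3.51 log2 CPM, and since gfi1b is also an older name of gfi1ab, which of these genes it stands for is uncertain. By in situ hybridisation, the paper found gfi1ab restricted to regions that match the endocardium.

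The members runx1 and myb differed widely in read share. runx1 had a mean of 4.91 log2 CPM, or 30.0 CPM, at percentile 74.8 of all listed genes. Its binding partner cbfb, which stabilises Runx proteins on DNA, had 7.02 log2 CPM. The other Runx genes found, known mainly from bone, neurons and lymphoid cells in mammals, were below 1 CPM: runx3 had -0.17 log2 CPM and runx2b had -1.99. runx2a was not found by name. Unlike runx1, myb was among the genes with the highest read shares, with 9.29 log2 CPM, or 624 CPM, and 192 genes above it. The related genes had 6.21 log2 CPM for mybl2b and 5.18 for mybl2a, which belong to a regulator of genes of dividing cells, and 1.97 for mybl1, which is known from germ cells. The co-activators that Myb recruits had 5.31 log2 CPM for crebbpb, 4.16 for crebbpa, 4.68 for ep300a and 4.23 for ep300b.

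Beside the members, 7 of 8 other regulators of early endothelium and blood were found, and these ran from 5.91 to 10.22 log2 CPM with a median of 8.87. fli1a, an Ets factor of endothelium whose promoter drives the reporter of one line, had 10.22 log2 CPM. spi1b, the Ets factor of myeloid cells, had 9.87 log2 CPM and drl, a zinc finger gene of the lateral mesoderm, had 9.17. etv2, an Ets factor directly downstream of npas4l, had 8.87 log2 CPM, or 467 CPM, against the 7.07 CPM of npas4l. From earlier work, the paper describes etv2 as weak when it starts at tailbud and high by the stage sorted here. The npas4l peak is placed at tailbud stages. The contrast between etv2 and npas4l therefore holds for the sorted stage only, and its change with stage was not tested. erg, another endothelial Ets factor, had 6.63 log2 CPM. fli1b was not found by name. Of the 7 members, 5 lay within the range of these regulators in read share, and npas4l and runx1 lay below it. The lowest regulator, gata2a, lay at percentile 85.2 of all listed genes and the highest, fli1a, at percentile 99.6. gata2a and gata1a are also on the Tal1-Lmo2 list above.

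Markers of the cell types that the sort could hold were read in the same way. All 14 endothelial markers were at 1 CPM or more, with a median of 7.38 log2 CPM, and pecam1 was the lowest with 1.65. Over all listed genes, 73.9% reached 1 CPM. Every endocardial, erythroid, skeletal muscle, neural and epidermal marker on the lists reached it as well. The 4 endocardial markers ran from 4.50 for nfatc1 to 9.55 for fn1a. The 12 erythroid markers had a median of 4.54 log2 CPM, the highest being hbbe1.1 with 8.39 and the lowest klf1 with 0.85. Of 8 myeloid markers, 6 were found and 5 of these reached 1 CPM. The 6 had a median of 4.99 log2 CPM, with cebpa at 10.50 and mfap4 at -0.04. The 5 epidermal markers had a median of 7.93 log2 CPM, with krt4 at 10.67 and cldni at 6.17, whereas 8 myocardial, 5 skeletal muscle and 4 neural markers had medians of 3.28, 2.01 and 3.06. Their highest and lowest genes were gata5 (7.18) and tnnc1a (-0.75), actc1b (6.57) and myod1 (1.27), and sox3 (6.48) and neurog1 (1.52). tal1, lmo2, runx1 and myb are also genes of blood cells. By in situ hybridisation, the paper reports cbfa2t3 in otic progenitors and the neural system besides the endocardium. The part that each cell type had in the means of the members was not tested.

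Because the libraries keep no strand, reads of a gene that overlaps a member would be counted together with it or set aside. By RefSeq gene positions on the zebrafish assembly GRCz12tu, 6 of the 7 members overlapped no other annotated gene. The authors mapped the reads to GRCz11, and overlaps in the annotation used for their counts were not examined. runx1 overlapped the microRNA gene mir459.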

How the data were processed

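Smart-seq2 libraries were made from sorted GFP-positive cells of 15-somite embryos, 3 for each line. Read mapping (GRCz11) and counting of genes were done by the authors in Rsubread, and limma was then run by the authors on the counts. Versions, the filter on low counts, the scaling and any offset are not given in the sources used here. The authors' deposited table holds a mean of each gene, labelled AveExpr, which was the column used. The label names neither a unit nor libraries, and it was read as log2 CPM over the libraries of both lines. The other columns of that table hold the authors' own comparison of the lines (log2 fold changes with confidence limits, test statistics and p-values). They were not used, so no test between the lines was made and the depth per library is unknown. On the linear scale the means sum to 956297 CPM.

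CPM was taken as 2 to the power of the mean. Because that mean is of log2 values, this is not the mean CPM of the libraries. The percentile of a gene is the share of the other listed genes (19722 in all) with a lower mean. Genes were found by symbol (14092 genes have one), then by the gene name list, which matched 18622 identifiers, then by older RefSeq names. The named genes are the 7 members, every gene found on 7 partner lists (1 gene first listed is not reported here) and the highest and lowest of 8 marker lists. Members and lists were chosen with earlier results of these data known. Levels per kilobase, protein identities and promoter motifs had been planned and were not computed, because transcript lengths and sequences were not used here. The percentile step was tested on simulated data. Python 3.11.15, numpy 2.4.6, pandas 2.3.3 and matplotlib 3.10.9 were used.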

Additional observations from a re-analysis of the deposited data

How the results depend on the processing

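Ranks were recomputed among genes with a symbol and among genes of at least 1 CPM. The percentiles of tal1, lmo2, myb, hhex and cbfa2t3 moved by at most 5 points under both. That of npas4l went from 52.5 to 43.5 and 35.8, and that of runx1 from 74.8 to 68.9 and 65.9, since both alternatives rank against fewer genes of low mean. Scaling the means to a sum of 1000000 CPM multiplied each CPM by 1.05. A minimum of 5 CPM in place of 1 CPM changed the number of genes that reached it on each partner list by at most 1.5 times. Levels per kilobase, promoter windows and, for the difference between the lines, leaving out each library were not run. No paired analysis was possible because the column used carries no replicate numbers and no test was made. The pooled mean gives no error, so differences between genes were not tested.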
